A study of Bos taurus with 8 samples.

Results

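The genes described here are the solute carriers (SLC), the genes whose symbol in the platform's annotation begins with SLC and a digit. SLC2A3 was left out by the rule that chose them. The array carried features for 305 such symbols. Of these, 149 had a value on all 8 arrays, from 237 features, and are the members described below; the other 156 lacked a value on at least 1 array and were not tested. The measured share was 48.9%, against 58.8% of all 14399 symbols on the platform.

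Solute carriers are membrane proteins that move sugars, amino acids, organic acids, nucleotides, metals and ions across the plasma membrane or the membranes of organelles, by facilitated diffusion or coupled to an ion gradient. Neutrophils, the main cells of the polymorphonuclear fraction of blood, draw most of their energy from glycolysis, which needs glucose uptake and the export of lactate. Iron, zinc and calcium carriers of leukocytes set the supply of these ions in the cytosol, the phagosome and the mitochondria.

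RNA was taken from polymorphonuclear leukocytes (PMNL) of 8 Holstein cows, 4 on a dry-period diet labelled M and 4 on one labelled S, at day -14 (within 2 days) and at day 7 from calving. One diet was rich in wheat straw (1.34 Mcal of net energy per kg of dry matter, at least 100% of the calculated need) and the other was based on corn silage (1.62 Mcal per kg, above 140%), both fed over a dry period of 45 days. The labels used here do not tell which letter stands for which diet. From calving on, all cows received 1 lactation diet (1.69 Mcal per kg), so the day 7 samples of both groups were taken on the same feed. The leukocytes came from blood by centrifugation and lysis without a sort by surface marker.

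The 16 RNA samples met in pairs on 8 arrays of 2 colours. Each pairing of groups (diets at day -14, diets at day 7, days in diet M, days in diet S) had 2 direct arrays, called the first and second below. On the diet M arrays the days came from 1 cow, and on the diet S arrays from different cows. A value is a log2 ratio, so it compares groups but gives no level of a gene, and genes are not ranked by abundance. A positive value means more RNA in diet M than in diet S, or at day 7 than at day -14, if each ratio is read as Cy5 over Cy3. The sources used here do not state that order: if it is reversed throughout, every sign below turns over, and if it varies between arrays the sizes change too. Fitted values are given ± the standard error (SE) of a model (limma) over all 8 arrays, and a gene counts as changed where the Benjamini-Hochberg adjusted p over all 13049 rows tested is under 0.05. A row is the mean over the features of a symbol, or a feature without one. The SE of a member at day 7 ran from 0.25 to 1.00 with a median of 0.34.

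The second day 7 diet array and the first diet S day array both held RNA of cow 8041. Other cows also had RNA on 2 arrays. On the second day 7 diet array, where cow 8041 was the diet S cow, the median log2 ratio was 2.98 over 8 of 10 listed monocyte markers and 6.59 over 3 of 9 eosinophil and basophil markers, against -0.30 and -0.87 on the first. The 10 of 12 neutrophil markers measured had medians of 0.59 and 1.77 there. T cell and NK markers (11 of 11) had medians of -0.01 and 1.42, B cell markers (5 of 8) 1.59 and -2.81, platelet markers (2 of 6) -0.42 and 1.88, and red cell markers (3 of 7) 0.23 and 0.70. On the first diet S day array, the monocyte list had a median of 3.22, against -0.22 on the second. Not all monocyte markers were high on the first: CD68 read -1.47 and MS4A7 0.22. The neutrophil list had medians of 0.70 and -1.17 on these arrays, and the T cell and NK list of 0.28 and -1.13. B cell markers had -1 and 1.13, platelet markers 1.84 and -1.57 and red cell markers 1.40 and -0.41. Eosinophil and basophil markers had -0.81 and -1.74. Ratios cannot show whether a marker was present or absent. In bulk RNA, fewer cells of a type and less RNA per cell cannot be told apart. The part of cell composition in the results on solute carriers was not tested. Some day 7 diet values and diet S day values are given below with and without cow 8041, but other members moved as well. Leaving out this cow drops both of its arrays, which also held day 7 RNA of other cows, from diet M and diet S. The first day 7 diet array and the second diet S day array then stay as direct arrays. The shifts therefore cannot be assigned to cow 8041 alone. Without that cow, the day 7 diet value of SLC37A3 went from 0.73 to -0.47 and that of SLC39A14 from -0.03 to -1.21. The diet S day value of SLC22A4 went from -1.05 to -1.88.

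No solute carrier passed the test in any of the 4 pairings or in the interaction of diet and day. With limma, 0 of 149 had an adjusted p under 0.05 in each of these 5 comparisons. Among all rows, 0.00766% passed for diet at day 7, a single row, and 0% in each of the other 4. At an unadjusted p under 0.05, 11 members (7.38%) stood out for diet at day -14, where 6.15% of all rows did. For diet at day 7 the members numbered 42 (28.2%), beside 28.8% of all rows. There were 8 (5.37%) for the days in diet M beside 2.08%, 5 (3.36%) for the days in diet S beside 3.88%, and 13 (8.72%) for the interaction beside 5.92%. The shares for diet at both days and for the days in diet S were thus close to those of all rows. Since no member passed, the values that follow are estimates with their errors and not changes.

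**Figure D1:**
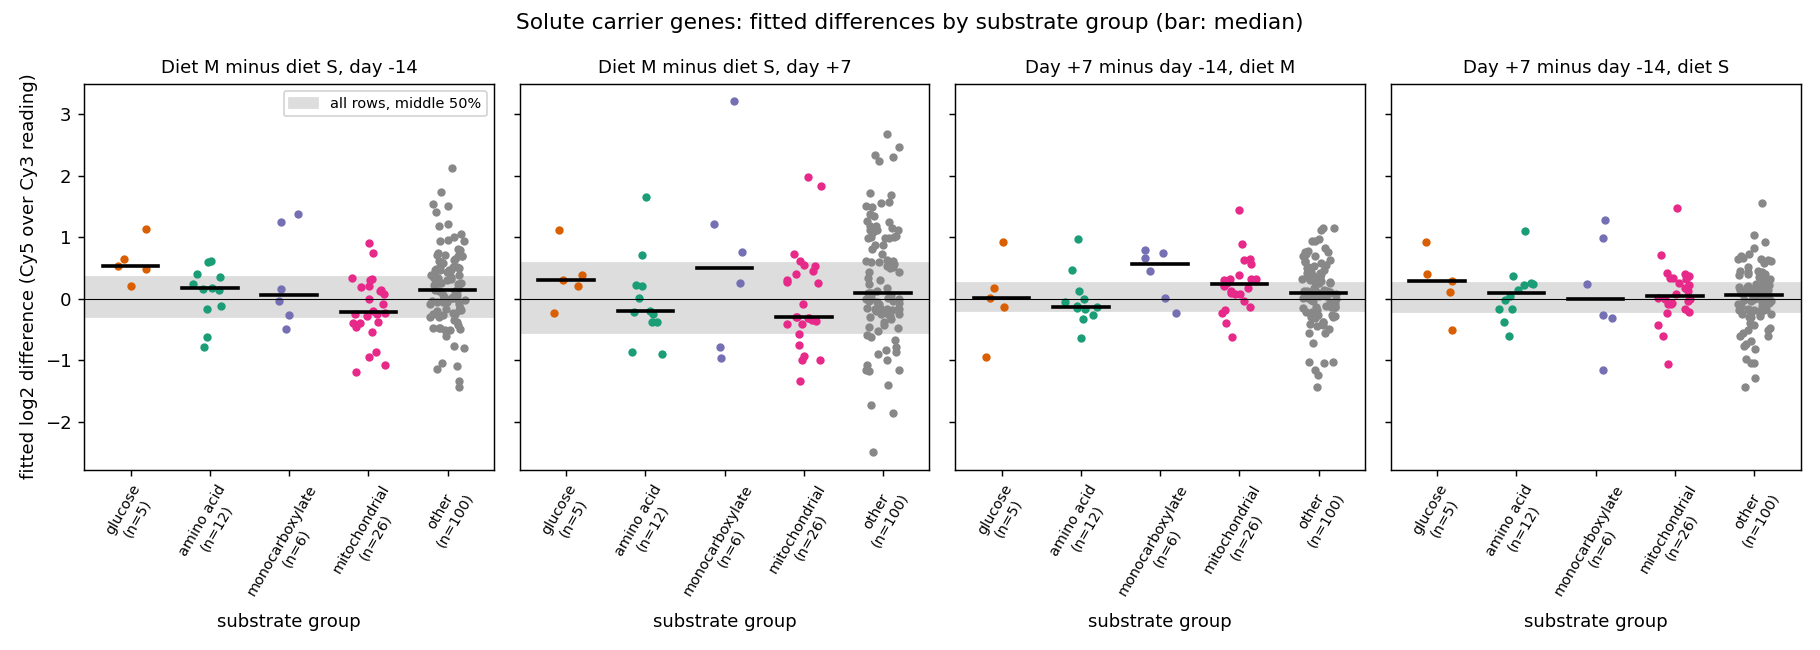
Fitted log2 differences (y axis, Cy5 over Cy3 reading) of the 149 solute carrier genes in each of the 4 pairings, by substrate group (x axis). Each point is a gene, the black bar is the group's median and the grey band holds the middle 50% of all 13049 rows. The points spread widest for diet at day 7, where the glucose group has a median of 0.31 and the mitochondrial group of -0.30.

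As a set the members stayed near the middle of all rows. Their median was 0.13 for diet at day -14, 0.06 for diet at day 7, 0.10 for the days in diet M and 0.07 for the days in diet S, where all rows had medians of 0.02, -0.02, 0.02 and 0.04. The spread over the 149 genes was widest for diet at day 7, with an SD of 0.93, against 0.61 at day -14 and 0.49 for the days in either diet. All rows had SDs of 0.88, 0.56, 0.42 and 0.47 in the same order. In the fitted order of the 4 groups, diet M at day 7 lay highest for 58 members and diet S at day 7 lowest for 47. Over all rows these shares were 33.9% and 31.1%, against 38.9% and 31.5% of members. With every ratio turned over, diet M at day 7 would lie highest for 31 members (20.8%, beside 32.5% of rows) and diet S at day 7 lowest for 50 (33.6%, beside 36.3%).

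Before calving, the glucose carriers lay on the diet M side and mitochondrial carriers more often on the diet S side, but no gene of either group passed the test. All 5 measured SLC2 genes had positive estimates, with a median of 0.54. Of 26 mitochondrial SLC25 genes, 10 were positive and 16 negative, with a median of -0.22. Across all members, 87 of 149 were positive (58.4%), against 51.1% of all rows. The sign was the same on both direct arrays for 93 members (62.4%), beside 64.4% of all rows. On the direct arrays of this pairing the monocyte list had medians of 1.12 and 0.83, the T cell and NK list of 0.30 and 0.93, the neutrophil list of 0.19 and 0.90, and the eosinophil and basophil list of 3.42 and -1.10. Their part in the values below was not tested.

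SLC2A6, a glucose carrier of lysosomal membranes, read 1.09 and 0.61 on the direct arrays at day -14. Both arrays lay above 0, and the fitted difference was 1.13 ± 0.58. SLC2A4, the insulin-responsive glucose carrier of muscle and fat, read 0.27 and 1.43, with a fitted 0.54 ± 0.37. SLC2A13, which carries myo-inositol with protons, was fitted at 0.48 ± 0.31 from 0.33 and 0.66. For SLC2A8, an intracellular hexose carrier, the arrays gave 0.01 and 0.77 and the fit 0.64. SLC2A1, the basal glucose carrier of most cells, differed in sign between its arrays, at 1.08 and -1.05, so its fitted 0.20 has no direction that the replicates share.

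Among 12 amino acid genes at day -14, 8 were positive and 4 negative, with a median of 0.17. SLC7A5, the light subunit of the exchanger of large neutral amino acids, read -0.94 and -1.11, and SLC3A2, the heavy subunit it pairs with, read 0.47 and 0.52. The subunits of this exchanger thus stood on opposite sides of 0 on both arrays, with fitted values of -0.79 ± 0.43 and 0.61 ± 0.34. SLC7A7, a light subunit that exports cationic amino acids, had 0.59 ± 0.38. SLC7A8, another light subunit for neutral amino acids, read -0.23 and 1.01. Its fitted 0.41 ± 0.26 therefore rests on arrays of opposite sign.

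The monocarboxylate carriers SLC16A5 and SLC16A6 had the largest estimates of their family at day -14. SLC16A5 read 1.45 and 1.21, with a fitted 1.37 ± 0.64. SLC16A6, known in zebrafish as an exporter of ketone bodies from the liver, read 0.70 and 1.3, with 1.25 ± 0.66. SLC16A1, a carrier of lactate, pyruvate and ketone bodies, lay on the other side at -0.52 and -0.29, fitted at -0.49 ± 0.41. The family of 6 was split evenly, with 3 genes positive.

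In the mitochondria, SLC25A20 brings acylcarnitines to fatty acid oxidation. It read -2.11 and -0.57 at day -14, and its fitted -1.19 ± 0.29 had an unadjusted p of 0.00405. SLC25A22, a glutamate carrier, read -1.54 and -1.23, fitted at -1.08 ± 0.41. SLC25A12, the aspartate and glutamate carrier of the malate-aspartate shuttle, read -1.42 and -1.0, fitted at -0.86 ± 0.43. These 3 were below 0 on both arrays. SLC25A39, needed for mitochondrial glutathione import, had -0.54 ± 0.33. SLC25A24, which exchanges ATP-magnesium for phosphate, was fitted on the positive side at 0.91 ± 0.56.

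Among the other families, SLC20A2, a sodium-coupled phosphate carrier, had the smallest p of all members at day -14. It read 1.74 and 2.37 on the direct arrays, both high, with a fitted 2.12 ± 0.33 and an unadjusted p of 0.000231; limma's adjusted p was 0.701, which was also the lowest of any member. SLC45A4 read 0.86 and 1.04 and was fitted at 0.94 ± 0.34. SLC8A1, the sodium-calcium exchanger of the plasma membrane, read 0.90 and 1.20 and was fitted at 0.95 ± 0.35. On the negative side, the nucleoside carrier SLC29A1 read -2.19 and -1.42, fitted at -1.33 ± 0.45. The potassium-chloride cotransporter SLC12A4 read -0.79 and -1.87, fitted at -1.14 ± 0.44. SLC35E3 (-1.05 ± 0.42) and SLC4A11 (-0.80 ± 0.27) also lay below 0 on both arrays. SLC31A1, the copper importer, read -0.04 and 1.92, with a fitted 1.01 ± 0.39 that was 0.55 without the second array. Without both arrays of cow 8041, 6 of 149 members and 365 of 13049 rows had an unadjusted p under 0.05 at day -14, not all of them those of the full fit; SLC20A2 then stood at 1.91 and SLC29A1 at -1.75.

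After calving the diets lay furthest apart, for solute carriers as for all rows. The largest positive estimates were those of SLC16A6, SLC45A4, SLC8A1, SLC26A11 and SLC13A5, and the lowest was that of SLC10A5. Without cow 8041, the 2.34 of SLC26A11 became 1.22 and the 3.21 of SLC16A6 became 1.89. Of 149 estimates, 78 were positive (52.3%), beside 48.9% of all rows. The size was at least 1 for 41 members (27.5%), beside 22.4% of all rows. Of the 42 members with an unadjusted p under 0.05, 28 were positive and 14 negative. Positive calls of this kind made up 18.8% of members and 14.7% of all rows, negative ones 9.40% and 14.1%. The sign was the same on both direct arrays for 80 members (53.7%), beside 56.3% of all rows.

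**Figure D2:**
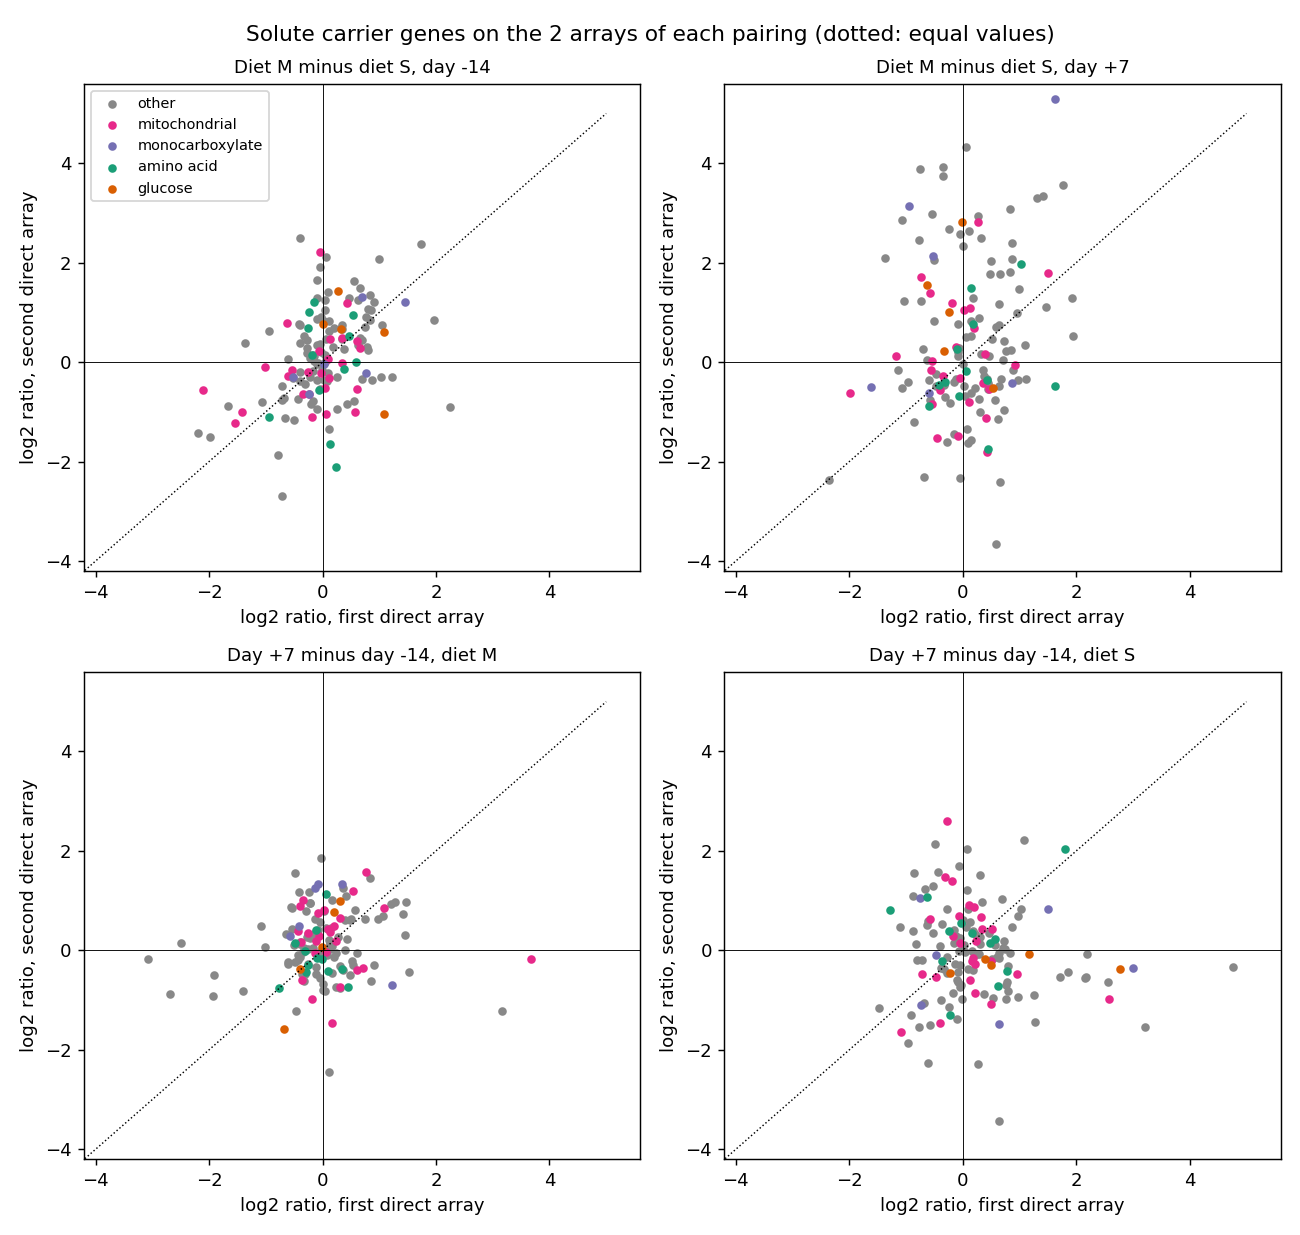
Log2 ratios of the 149 solute carrier genes on the first (x axis) and second (y axis) direct array of each pairing, with colours for the substrate groups and a dotted line at equal values. In the panel for diet at day 7 the points reach much further along the axis of the second array, which holds cow 8041, than along that of the first, with SLC16A6 at 1.63 and 5.29.

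SLC45A4 had the smallest p at day 7. It read 1.77 on the first array and 3.56 on the second, both far above 0, and the fit gave 2.67 ± 0.34 with an adjusted p of 0.0559 from limma. SLC8A1 read 1.41 and 3.34, and its fitted 2.47 ± 0.35 had an adjusted p of 0.0564 from limma. Without both arrays of cow 8041 these genes stood at 2.49 and 2.11. Neither estimate thus lay close to 0 without that cow, and neither passed the threshold with it.

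Carriers of metals and calcium follow. SLC40A1, ferroportin, the only known iron exporter of mammalian cells, read 0.83 and 3.07. It was fitted at 2.24 ± 0.42, and at 1.86 without cow 8041. SLC30A1, which exports zinc across the plasma membrane, read 0.99 and 1.48, and its 1.25 ± 0.27 stayed at 1.25 without cow 8041. SLC24A6, now named SLC8B1, the sodium-calcium exchanger of mitochondria, read 0.87 and 2.08 and was fitted at 1.68 ± 0.31, or 1.46 without cow 8041. SLC11A1, which pumps iron and manganese out of the phagosome of macrophages and neutrophils, read -0.25 and 2.67, so its arrays differed in sign and the fit gave 0.99, or 0.38 without cow 8041. The 18 metal carriers were split evenly, with 9 positive and a median of 0.04.

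SLC13A5, a citrate importer of the plasma membrane, read 1.3 and 3.31 at day 7, fitted at 2.31 ± 0.45. Without cow 8041 it stood at 1.83. SLC10A5, a member of the bile acid carrier family with no settled substrate, read -2.35 and -2.38. The arrays of this gene lay within 0.1 of each other far below 0, and its fitted -2.49 ± 0.54 became -2.68 without cow 8041. SLC4A11 read -0.86 and -1.20 and was fitted at -1.17 ± 0.27. The reduced folate carrier SLC19A1 differed in sign between its arrays, at 0.59 and -3.66, with a fitted -1.85 ± 0.63, and -1.19 without cow 8041. The taurine carrier SLC6A6 read 0.01 and 2.34, fitted at 1.51 ± 0.48, and at 0.87 without cow 8041.

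**Figure D3:**
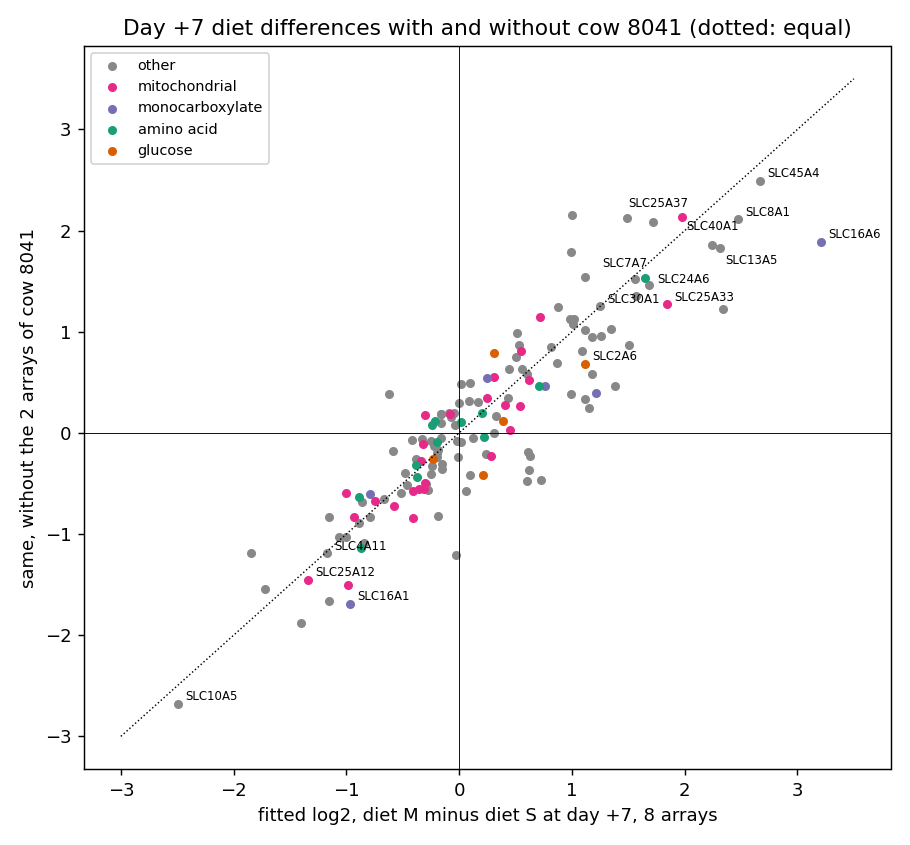
Fitted log2 difference of diet M minus diet S at day 7 for the 149 solute carrier genes over all 8 arrays (x axis) and without both arrays of cow 8041 (y axis), with colours for substrate groups and a dotted line at equal values. SLC45A4 lies at 2.67 and 2.49, SLC10A5 at -2.49 and -2.68, and SLC16A6 falls well below the line at 3.21 and 1.89.

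In the monocarboxylate family the day 7 values ran from -0.97 to 3.21. SLC16A6 read 1.63 on the first array and 5.29 on the second, the highest reading of a member on that array. The fitted 3.21 ± 0.66 had an adjusted p of 0.0682 from limma. SLC16A1 read -1.62 and -0.50, below 0 on both arrays, with -0.97 ± 0.41, and -1.69 without cow 8041. SLC16A8, a lactate exporter of the retinal pigment epithelium, had -0.79 ± 0.35. SLC16A3, the lactate exporter of glycolytic cells, read -0.94 and 3.13. Its arrays pointed in opposite directions around a fitted 1.21, which was 0.39 without cow 8041.

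Of the 12 amino acid genes at day 7, 5 were positive and 7 negative, with a median of -0.20. SLC7A7 read 1.03 and 1.98, positive on both arrays, with 1.65 ± 0.38 and an adjusted p of 0.0745 from limma. Without cow 8041 it stood at 1.53. The subunits SLC7A5 and SLC3A2 again had fitted values of opposite sign, at -0.89 ± 0.43 and 0.71 ± 0.34. On the arrays, SLC7A5 read 0.44 and -1.74 and SLC3A2 read 0.15 and 1.49, so only the second array showed that opposition. SLC1A4, a carrier of alanine, serine and cysteine, had -0.87 ± 0.50, and SLC38A2, a sodium-coupled carrier of small neutral amino acids, had 0.20 ± 0.27.

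The mitochondrial family held both signs at day 7. SLC25A37, mitoferrin, which feeds iron to heme synthesis, read 1.51 and 1.80, high on both arrays, with a fitted 1.98 ± 0.50 and 2.13 without cow 8041. These are means over 5 features, which were fitted at 0.46 to 3.27. The lowest of them read 0.71 and -0.08 on the direct arrays. Of the 5 features, 1 is assigned to another locus in the current annotation. SLC25A33, a pyrimidine nucleotide carrier, read 0.26 and 2.82, with 1.84 ± 0.48, and 1.27 without cow 8041. The ADP/ATP exchangers, which bring ATP out of the matrix, were at -0.75 ± 0.25 for SLC25A4, -0.58 for SLC25A5 and -0.08 for SLC25A6. SLC25A12 had -1.34 ± 0.43 and SLC25A20 had -0.93 ± 0.29. Of 26 carriers, 11 were positive and 15 negative, with a median of -0.30.

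The glucose carriers showed no shared sign between the day 7 arrays: for none of the 5 did both arrays lie on the same side of 0. SLC2A6 read -0.01 and 2.81, fitted at 1.12 ± 0.58, and 0.68 without cow 8041. SLC2A13 read -0.25 and 1.01, SLC2A4 read 0.54 and -0.53, and SLC2A1 read -0.33 and 0.22. Without both arrays of cow 8041, 23 of 149 members had an unadjusted p under 0.05 at day 7, 17 of them positive, as did 1347 of 13049 rows. These 23 include genes such as SLC22A4 and SLC39A14 that were not under it with all arrays.

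**Figure D4:**
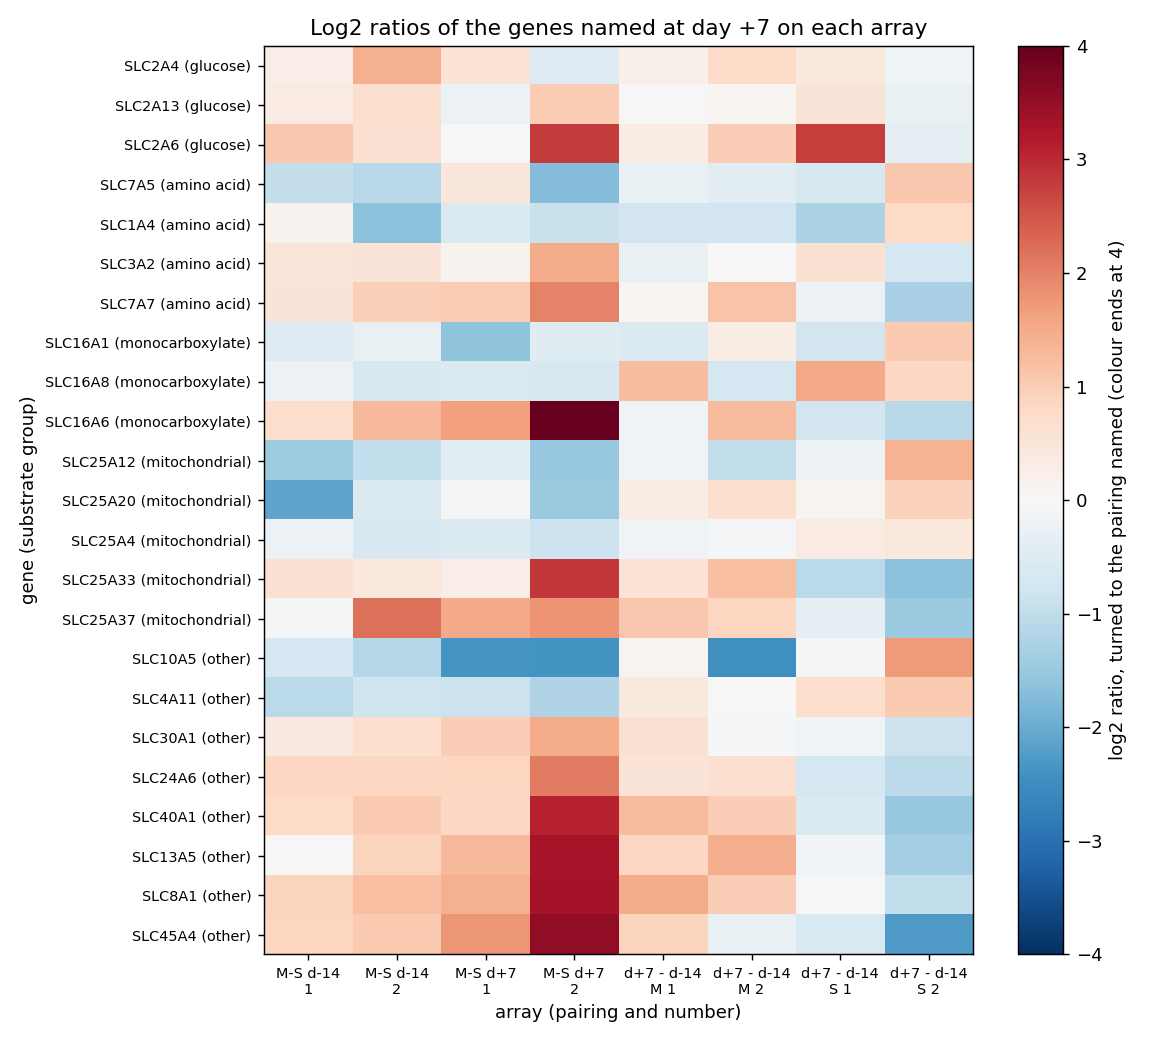
Log2 ratios (colour) of the 23 solute carrier genes named for diet at day 7 (rows) on each of the 8 arrays (columns), each turned to the direction of its pairing. The column of the second day 7 diet array holds the deepest colours, including 5.29 for SLC16A6, which lies past the end of the scale at 4.

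Within diet M, the days around calving differed little for most solute carriers. Of 149 estimates, 94 were positive (63.1%) against 51.9% of all rows, but only 45 were positive when the ratios were used as deposited. That scaling moved the median of all rows from 0.02 to -0.29 and the median of members from 0.10 to -0.21, so the members lay above all rows by a like amount under both. Both arrays had the same sign for 76 members (51.0%), beside 47.4% of all rows. In this pairing the neutrophil list had medians of 0.85 and 1.13 on the direct arrays and the T cell and NK list of -1.03 and -0.08. The eosinophil and basophil list had -2.65 and -1.40, the platelet list 1.19 and 1.90 and the monocyte list 0.66 and 0.26. The part of this in the values below was not tested.

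SLC2A1, the basal glucose carrier, read -0.67 and -1.59 for day 7 minus day -14, below 0 on both arrays, with a fitted -0.95 ± 0.34 and an unadjusted p of 0.0262. SLC2A6 had 0.92 ± 0.58 from 0.30 and 0.99. The fitted 0.18 ± 0.37 of SLC2A4 turned to -0.26 with the ratios as deposited. Sodium-coupled chloride and phosphate carriers also read negative: the sodium-potassium-chloride cotransporter SLC12A2 read -0.46 and -1.22, fitted at -1.03 ± 0.31, and SLC20A2 read -1.40 and -0.81, fitted at -1.04 ± 0.33.

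SLC12A5, a potassium-chloride cotransporter best known from neurons, read 1.20 and 0.94, both positive, with 0.94 ± 0.27. Its features, fitted apart, stood at 1.64 and 0.24. SLC8A1 read 1.47 and 0.98 and had 1.12 ± 0.35. SLC13A5 read 0.84 and 1.46 and had 1.15 ± 0.45. The dicarboxylate carrier SLC13A2 read -2.49 and 0.14, and its -1.24 ± 0.46 was -0.60 without the first array. SLC22A18 read -3.08 and -0.17, and its -1.43 ± 0.62 was -0.12 without the first array. The concentrative nucleoside carrier SLC28A3 had 1.15 ± 0.50, from 1.42 and 0.73.

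Among mitochondrial carriers, 20 of 26 were positive over the days in diet M, with a median of 0.23, beside 51.9% of all rows. Only 9 were positive on both direct arrays, whose medians were 0.07 and 0.31. With the ratios as deposited most of the 26 lay below 0, where the median of all rows was -0.29. SLC25A28, the other mitoferrin, read 0.76 and 1.58 and had 0.89 ± 0.35. SLC25A20 had 0.63 ± 0.29 and SLC25A37 had 0.64 ± 0.50. SLC25A46, an outer membrane protein tied to mitochondrial fission and fusion, read 3.68 and -0.17, and its 1.44 ± 0.81 was 0.06 without the first array. SLC25A30 read 0.16 and -1.47 and was fitted at -0.62 ± 0.35. The 6 monocarboxylate genes had a median of 0.56, with SLC16A6 at 0.80 ± 0.66, SLC16A3 at 0.74 ± 0.62 and SLC16A8 at 0.45 ± 0.35; SLC16A8 read 1.23 and -0.69, on opposite sides of 0.

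Amino acid carriers leaned to the negative side in diet M, with 8 of 12 below 0 and a median of -0.13. SLC1A4 read -0.77 and -0.76, nearly equal, with -0.63 ± 0.50. SLC1A5, the main glutamine importer of dividing cells, had 0.97 ± 0.76 although its direct arrays read only -0.11 and 0.40, since the fit uses all 8 arrays. SLC7A7 had 0.46 ± 0.38, and SLC38A9, the lysosomal arginine sensor, had -0.26 ± 0.26. In all 4 the estimate was within 2 SE of 0.

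Within diet S, the estimates rested on arrays that each joined different cows. Of 149, 85 were positive (57%) beside 55% of all rows, and with the ratios as deposited 35 were, where the median of all rows stood at -0.22 and that of members at -0.24. The sign was the same on both arrays for 69 members (46.3%), against 42.7% of all rows. Without both arrays of cow 8041 the members' median changed from 0.07 to -0.04, and 71 were positive. The medians of the marker lists on the diet S day arrays are given above. Their part in the values below was not tested.

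SLC45A4 had the smallest p in diet S. It read -0.61 and -2.27, below 0 on both arrays, with a fitted -1.43 ± 0.34 and an unadjusted p of 0.00322, and stood at -1.55 without cow 8041. SLC16A8 read 1.5 and 0.84 and had 0.99 ± 0.35, or 0.83 without that cow. SLC4A11 read 0.70 and 1.04 and had 0.73 ± 0.27. The sodium-proton exchanger SLC9A5 had 0.92 ± 0.35 from 0.08 and 2.03, and the zinc carrier SLC39A9 had 0.82 ± 0.32 from 0.07 and 1.21. For SLC9A5 and SLC39A9 the second array alone lay far from 0.

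Other diet S values moved when cow 8041 was left out. SLC2A6 read 2.78 on its array and -0.37 on the other, and its 0.93 ± 0.58 became 0.32 without that cow. SLC16A5 read 3.0 and -0.35, with 1.28 ± 0.64 and then 0.64. SLC6A6 read -1.47 and -1.16 but its -0.98 ± 0.48 became -0.31. SLC1A5 had 1.10 ± 0.76, read 1.81 and 2.03, and stood at 0.47 without cow 8041. SLC25A46 moved the other way, from 1.48 ± 0.81 to 3.08, with array readings of -0.28 and 2.61.

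SLC2A1 had -0.51 ± 0.34 and SLC2A4 had 0.41 ± 0.37. SLC7A7 had -0.61 ± 0.38 and SLC16A6 had -1.16 ± 0.66, each negative on both arrays. SLC25A33 read -1.08 and -1.64 with -1.06 ± 0.48. The phosphate carrier of mitochondria, SLC25A3, had 0.42 ± 0.26, SLC25A5 had 0.41 ± 0.25 and SLC25A4 had 0.33 ± 0.25. These 3 genes of ATP supply were positive on both arrays but less than 2 SE from 0. SLC7A6OS (0.37 ± 0.28) matches the naming rule but is the gene on the strand opposite SLC7A6, not a carrier, and SLC38A9 had 0.25 ± 0.26. SLC46A3, a lysosomal carrier, had -1.05 ± 0.48, SLC24A6 had -0.68 ± 0.31 and SLC12A5 had -0.56 ± 0.27.

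The interaction asks whether the diet difference at day 7 differed from that at day -14, or equally whether the day difference in diet M differed from that in diet S. It shares all its groups with the pairings above and is not independent of them. Of the 13 members with an unadjusted p under 0.05, 12 were positive (8.05% of members, 4.79% of all rows) and 1 negative (0.671%, 1.13% of all rows). The lowest adjusted p of a member was 0.776 with limma. Members as a whole had a median of -0.02 and all rows of -0.06. The neutrophil list had a median interaction of 0.83, with 8 of 10 positive and a range from -0.38 to 2.12. The monocyte list had -0.44, with 2 of 8 positive and a range from -0.85 to 2.17. Medians were 0.42 for eosinophil and basophil, -0.28 for T cell and NK and -0.26 for B cell markers. Platelet markers had 0.52 and red cell markers 0.16. Their part in the values below was not tested.

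**Figure D5:**
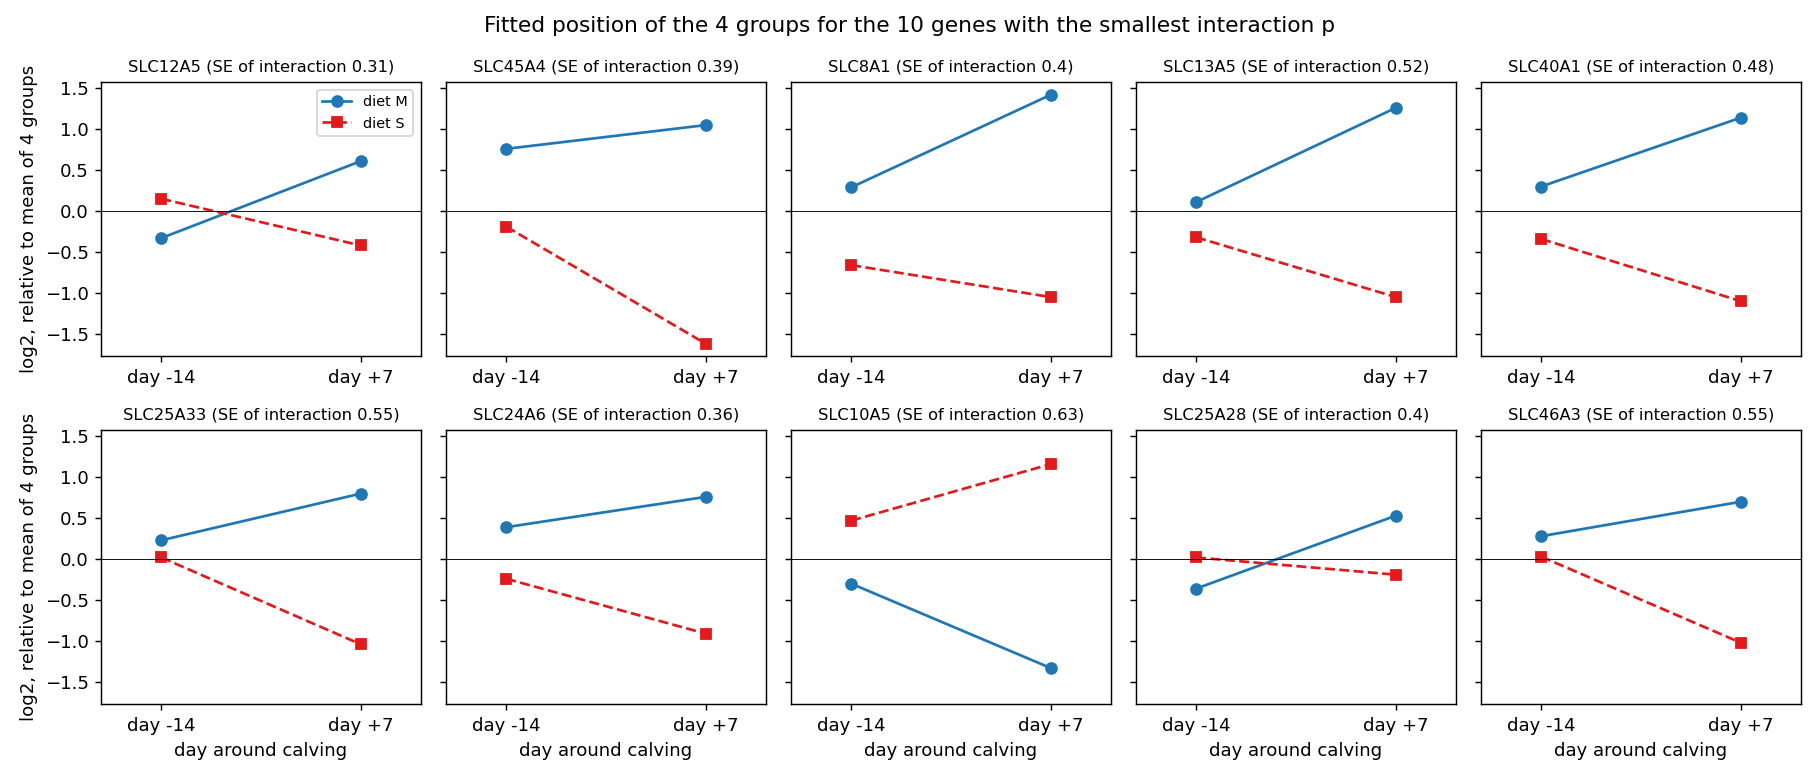
Fitted position of the 4 groups (y axis, log2 relative to their mean) at day -14 and day 7 (x axis) for the 10 solute carrier genes with the smallest interaction p, with diet M as circles and diet S as squares; the panel titles give the SE of the interaction. In 9 panels the diet M line lies above the diet S line at day 7, and in the panel of SLC10A5 it lies below.

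SLC12A5 had the smallest interaction p. Its 4 fitted positions, relative to their mean, were -0.33 and 0.61 in diet M at day -14 and day 7, and 0.15 and -0.42 in diet S. The interaction was 1.5 ± 0.31 with an unadjusted p of 0.00152 from limma. Fitted apart, the features of SLC12A5 gave interactions of 2.5 and 0.51. The SE is that of their mean and does not include this gap. SLC45A4 lay at 0.76 and 1.05 in diet M and at -0.19 and -1.62 in diet S, with an interaction of 1.73 ± 0.39. In this gene most of the distance came from diet S at day 7. SLC8A1 lay at 0.29 and 1.42 in diet M and at -0.66 and -1.05 in diet S, with 1.52 ± 0.40, where diet M moved further between the days.

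SLC40A1 lay at 0.30 and 1.14 in diet M and at -0.34 and -1.10 in diet S, and its interaction was 1.59 ± 0.48, or 1.26 without cow 8041. SLC25A28 had 1.10 ± 0.40. SLC13A5 had 1.88 ± 0.52, SLC25A33 had 1.63 ± 0.55 (1.13 without cow 8041), SLC46A3 had 1.47 ± 0.55 and SLC24A6 had 1.04 ± 0.36. SLC10A5 alone was negative, at -1.72 ± 0.63, and -2.15 without cow 8041. All 10 kept their sign in every fit that left out 1 array. They were picked by smallest p on these same arrays, so this is not an independent check.

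Of a panel of 36 solute carriers, 30 were measured. The panel includes SLC45A4, which was not placed in a substrate class. Of the 30, 0 passed limma's test for diet at day 7. An unadjusted p under 0.05 from limma was seen for 14, 8 positive and 6 negative, beside 28.8% of all rows and 28.2% of all members. The panel was chosen with earlier results of these data known, so its share beside theirs cannot serve as a test. Among those not yet named, the lysosomal peptide and histidine carrier SLC15A3 had 1.35 at day 7. SLC37A4, the glucose-6-phosphate carrier of the endoplasmic reticulum whose loss in humans impairs neutrophils, read -0.57 and -0.76 on the direct arrays, both below 0, with -0.79 ± 0.31. The oxoglutarate and malate exchanger SLC25A11 had 0.62 and the citrate carrier SLC25A1 had -0.31. SLC44A2, SLC27A4, SLC15A4 and SLC20A1, which carry choline, fatty acids, peptides and phosphate, had 0.44, 0.09, 0.33 and -0.16.

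For 57 members several features measured the same symbol. Their features differed in sign for 17 genes in the diet comparison at day -14, 18 at day 7, 22 over the days in diet M, 25 over the days in diet S and 18 in the interaction. The mean of features was used for all of them. SLC45A4, SLC20A2, SLC29A1, SLC16A1 and SLC2A1 each rest on 1 feature.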

How the data were processed

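Per the labels' protocols, 200 ng of RNA per sample (average RNA integrity number 7.7 ± 0.2) received a Cy3 or Cy5 dye before hybridisation on Agilent bovine arrays. The deposited values are log2 ratios per feature, and the authors' image processing is not given in the sources used here. They were not normalised: for 97.8 to 98.5% of values on an array, the antilog is a quotient of integers up to 10000 (tolerance 1e-09 in log2). These integers gave each feature's brightness, with array medians of 27.9 to 74.5. A ratio fixes its integers only up to a common factor, so this brightness is an estimate. Each array was corrected by loess on median brightness (span 0.4, 4 iterations). Features with a value on all 8 arrays (19981 of 43803) were averaged by platform symbol, giving 13049 rows, 8472 with a symbol. Symbols were checked against RefSeq names of assembly ARS-UCD2.0.

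limma 3.58.1 in R 4.3.3 fitted a loop model with 3 group terms and a dye term (4 residual and 3.63 prior degrees of freedom), two-sided, adjusted by Benjamini-Hochberg over all rows. The fit was tested on simulated data, which cannot show how it performs on these arrays. The number of arrays limits the precision, and p-values reflect only the variation among these arrays. Array SDs after loess ran from 0.57 to 1.48, and arrays had equal weight. Members, lists and the panel were chosen with earlier results of these data known. Named genes were those with the smallest p in each pairing, the 10 smallest in the interaction, and the panel. Each pairing gave 3 glucose, 4 amino acid, 3 monocarboxylate, 5 mitochondrial and 8 other genes. SLC26A11, SLC2A8, SLC6A9, SLC22A4, SLC37A3, SLC39A14 and the group extremes were named after their values were seen. Alternatives were the ratios as deposited, no dye term, a brightness minimum of 64, the brightest feature per symbol, array weights, the cow as a random block (correlation 0.22), no arrays of cow 8041, and each array left out. No sequences are shown.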

Additional observations from a re-analysis of the deposited data

Results flagged for a closer look

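Some genes named above had day differences of opposite sign in the diets on all 4 direct arrays. This was so for 23 of 149 members (15.4%), beside 13.9% of all rows, so the members' share was near that of all rows. The 12 that the text names follow, each with its interaction estimate; limma's adjusted p lay between 0.776 and 0.844, so none passed. SLC12A5 had 1.5, from readings of 1.20 and 0.94 in diet M and -0.39 and -0.99 in diet S. SLC40A1 had 1.59, from 1.27 and 0.97 against -0.58 and -1.51. SLC25A33 had 1.63, from 0.54 and 1.20 against -1.08 and -1.64. SLC25A37 had 1.24 and SLC25A28 had 1.10. SLC13A5 had 1.88, SLC8A1 had 1.52 and SLC24A6 had 1.04. SLC7A7 had 1.07 and SLC6A6 had 0.76. SLC25A4 (-0.36) and SLC7A6OS (-0.53) ran the other way, negative in diet M and positive in diet S.

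Diet differences of opposite sign at the 2 days on all 4 direct arrays were seen for 5 members (3.36%), beside 3.79% of all rows. Of these the text names SLC12A2 with an interaction of -0.74, SLC15A4 with 0.62 and SLC20A1 with -0.49. For SLC12A2 the arrays read 1.04 and 0.75 at day -14 and -0.12 and -0.34 at day 7. These are means of features that differed: at day -14 1 feature read 1.68 and 2.25 and the other 0.39 and -0.76. The pattern thus held for the mean and not for each feature. With limma's adjusted p at 0.843 for each of the 3, none passed.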

How the results depend on the processing

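Diet at day 7 was the only comparison in which an alternative brought a solute carrier past the threshold. The ratios as deposited called 47 rows and 2 members, SLC45A4 (2.70) and SLC8A1 (2.46). A brightness minimum of 64 called 359 of 9566 rows and 5 of 103 members, SLC7A7 (1.65), SLC16A6 (3.21), SLC45A4 (2.67), SLC24A6 (1.68) and SLC13A5 (2.31). That filter left fewer rows to adjust over. No dye term called 2 rows, and leaving out cow 8041 called 0. Leaving out 1 array called 0 to 74 rows and 0 to 5 members. The 5 came without the first day 7 diet array and were SLC25A33 (2.78), SLC26A11 (3.59), SLC40A1 (2.99), SLC6A6 (2.50) and SLC8A1 (2.98). The cow as replicate block, a pairing the labels give through cow numbers, left 1 row and 0 members called at day 7. It moved the median of members from 0.07 to 0.03 for the days in diet S and changed no call on members. Members with an unadjusted p under 0.05 went from 13 to 21 for the interaction, where all rows went from 772 to 1083. For the days in diet M they went from 8 to 13, and all rows from 271 to 398. They went from 11 to 10 for diet at day -14 and stayed at 42 at day 7 and 5 in diet S. The main fit had no term for the cow. With an array left out, the median of members ran from -0.01 to 0.15 for diet at day 7, -0.11 to 0.09 for the days in diet S, where the low end lacked the array with cow 8041, and -0.03 to 0.10 for the interaction. It was -0.21 and -0.24 for the days in diets M and S as deposited, -0.04 for diet S without cow 8041, and 0.09 for the interaction at a brightness of at least 64. Signs turned for SLC2A4 over the days in diet M (-0.26 as deposited, -0.05 to 0.40 with an array left out, the low end without either diet M array), for SLC7A7 (-0.10 to 0.80) and SLC16A3 (-0.30 to 1.6), with the low end without the second diet M array, and as deposited over the days in diet S for SLC2A4 (-0.02), SLC7A6OS (-0.03) and SLC38A9 (-0.05). None of these values passed the threshold. Of 1495 alternative values of named genes, 1477 kept sign and side of the threshold. The brightness minimum kept 103 of 149 members, and named genes below it have no value under that setting. The 1495 values therefore fall short of 15 for each of the 102 named pairs of gene and comparison. The values given above do not mark these dimmer genes. Since no named gene passed in the main fit, a value counted as kept if it again failed with the same sign, whatever its size. SLC25A46 over the days in diet M, at 0.06 to 2.34 with an array left out, counted as kept. The count is therefore no measure of how stable the sizes were. Apart from the loess and brightness settings, the cause of these shifts was not tested. Dropping SLC7A6OS, SLC4A1AP and SLC9A3R1, which are not carriers, was added after seeing the data and moved no median of members by more than 0.01.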

Other observations

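No gene of the families below passed the test at day 7. The 5 measured carriers of neurotransmitters, taurine and related amino acids all had positive estimates for diet M minus diet S, with a median of 0.98 and a range from 0.02 to 1.57, where 48.9% of all rows were positive and their median was -0.02. SLC6A12, the betaine carrier, had 1.57, and SLC6A9, a glycine carrier, had 0.98. The glycine carrier has 1 feature assigned to another locus in the current annotation. The 15 carriers of nucleotide sugars, which supply the Golgi with substrates for glycosylation, had a median of -0.16, with 6 positive and 9 negative. The 12 carriers of organic ions, bile salts and drugs spanned -2.49 to 2.31, with 8 positive and 4 negative.

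The sulfate carrier family member SLC26A11 read 0.06 and 4.33 on the day 7 diet arrays, a gap between replicates of the kind seen for SLC6A6 at 0.01 and 2.34. Both readings above 2 came from the array with cow 8041.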
